A study of Homo sapiens with 16 samples.

Results

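The comparison described here set 3 unstimulated libraries of a Jurkat line edited to include exon 9 of HDAC7 (iE9) against 3 unstimulated libraries of a line edited to lack it (dE9), which are 6 of the 16 libraries of the series. They were chosen by their labels, which name the lines H7iE9 and H7dE9 and say whether PMA was added. The cells were JSL1, a clone of Jurkat, the long-established T cell leukemia line. The labels call dE9 an HDAC7 E9 knock-out and iE9 a knock-in, both made by CRISPR editing. All 6 libraries came from cells kept in growth medium without phorbol ester, and polyadenylated RNA was sequenced. The time label was 48 h for all of them, although the design text of the series gives 0 h for unstimulated cells. The unedited wild type (WT), with 2 unstimulated libraries, and the same lines after 20 ng/mL PMA, a phorbol ester and activator of protein kinase C, with 3 libraries of each edited line and 2 of WT, make up the other 10. These 10 are used to place the values of the 6, and they also entered the fit, which estimates 1 spread over all 16 libraries; with the 6 libraries alone 161 genes were called instead of the 311 given below, 131 of them the same genes. The labels do not say whether each line is 1 clone or several, nor whether the replicates were separate cultures, so p-values reflect only how far these libraries scatter, which may be technical.

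HDAC7 belongs to the class IIa histone deacetylases and is abundant in developing thymocytes. Class IIa enzymes have little catalytic activity of their own and repress genes by binding MEF2 transcription factors and recruiting corepressor complexes that hold HDAC3. When the T cell receptor or a phorbol ester activates protein kinases C and D, HDAC7 is phosphorylated, binds 14-3-3 proteins and leaves the nucleus, and its target genes are released from repression.

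The edited exon and the junction formed without it are shown because the whole comparison rests on them. In the build of the files (hg38) exon 9 is the coding segment chr12:47795906-47796016 on the minus strand, 111 bases long, which is 37 whole codons, so that leaving it out keeps the reading frame. Capitals mark exon 9 as it lies in transcript HDAC7-201 of GENCODE release 29, and the lower-case bases are the 30 bases of transcript on either side, 5′ to 3′.
HDAC7 with exon 9: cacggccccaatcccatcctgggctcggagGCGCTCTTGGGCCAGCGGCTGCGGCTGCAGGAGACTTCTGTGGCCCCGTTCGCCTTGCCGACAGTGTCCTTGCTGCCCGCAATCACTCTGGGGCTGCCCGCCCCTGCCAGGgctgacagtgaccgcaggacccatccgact
HDAC7 without exon 9: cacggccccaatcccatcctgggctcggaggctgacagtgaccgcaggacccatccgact

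The labels were first checked on this exon. HDAC7 transcripts that hold the sequence in capitals summed to 0.2, 0.1 and 0.85 TPM (transcript abundance scaled for length and library size) in dE9 libraries 1, 2 and 3, and to 25.02, 14.66 and 23.7 TPM in iE9 libraries 1, 2 and 3. Transcripts with the direct junction summed to 9.28, 11.44 and 10.74 TPM in dE9 and to 17.92, 13.65 and 7.96 TPM in iE9. Exon 9 was therefore nearly absent from dE9, whereas the libraries labelled iE9 held both forms, and the 2 WT libraries held both at 46.6% and 47.49% exon 9. The share of exon 9 was 3.45% ± 3.46 (SD, n = 3) in dE9 and 61.64% ± 11.89 (SD, n = 3) in iE9, a difference of 58.19 percentage points. The groups did not overlap, and a two-sided exact permutation test gave p = 0.1, the smallest value that 3 against 3 libraries allow. The shares come from the authors' assignment of reads to transcripts and not from reads across the junctions.

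The 2 lines also differed in the amount of HDAC7. The gene (ENSG00000061273, chr12:47782722-47833132, minus strand) measured 46.8, 59.1 and 53.4 CPM (counts per 1e6 counts, scaled by the TMM method) in dE9 and 204, 129 and 172 CPM in iE9. Every iE9 library was above every dE9 library, and the dE9 values lay around those of WT, 45.7 and 58.1 CPM. Mean levels were 53.1 ± 6.18 CPM in dE9 and 168 ± 37.4 CPM in iE9 (SD, n = 3 each), and the log2 fold change was 1.66 ± 0.22 (standard error, SE), or 3.17-fold, with an adjusted p of 0.00224. HDAC7 was called in each of the 6 fits that left out 1 library, with log2 values from 1.5 to 1.82. Exon 9 content, HDAC7 level and any other property of the edited line cannot be told apart in the results that follow.

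**Figure D1:**
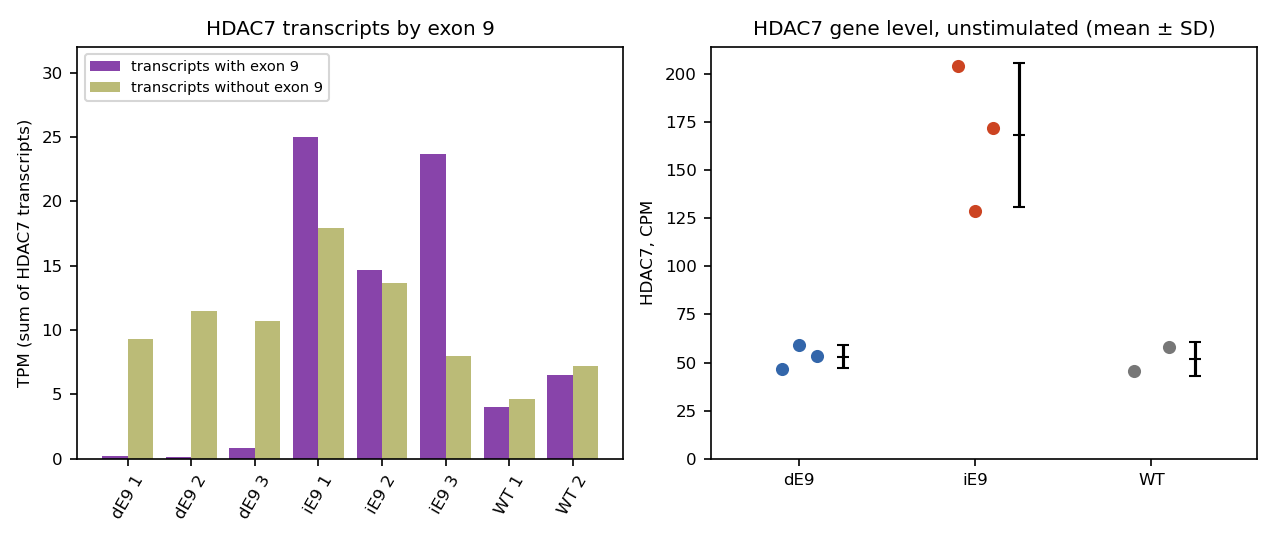
Left, summed TPM of HDAC7 transcripts with and without exon 9 in each unstimulated library, as bars from 0. Right, HDAC7 in CPM in each library (points) with the mean and SD of each line or WT; the iE9 libraries reach from 129 to 204 CPM and the dE9 libraries stop at 59.1 CPM.

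The 6 libraries held between 14536537 and 21888896 estimated counts. Library 1 of iE9 stood apart: 9.17% of its counts came from mitochondrially encoded genes, against 3.0% to 4.14% in the other 5, and its counts differed more from those of iE9 libraries 2 and 3 (chi-square per degree of freedom 118.44 and 97.62) than those differed from each other (16.07). Results below are therefore also given without it. All 13 Jurkat T cell markers were detected, summing to 2290 to 3240 CPM in the dE9 libraries and 2910 to 4020 CPM in the iE9 libraries.

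Of 18073 genes tested, 311 (1.72%) changed at an adjusted p under 0.05, of which 173 (0.957%) were higher and 138 (0.764%) lower in iE9 than in dE9. Among called genes the median log2 was 1.88 for the higher and -1.95 for the lower ones, and 270 of the 311 reached 2-fold. The median of the lower ones was -1.92 if genes at 0 counts in a line are set to their bound, taken at 3 counts for each library. The test favours large differences. On simulated data it called 10.9% of genes changed by a log2 of 1 and 82.3% of those changed by 2. These sizes therefore partly reflect the selection, and a gene that was not called may still differ. At least 8-fold differences were seen for 46 higher and 41 lower genes. In 309 of the 311 the 3 libraries of one line did not overlap the 3 of the other, against 22.3% of all genes tested. Calling on the same libraries made that nearly certain, so it is no support for the calls. For 100 of the 311 the mean level in the lower line was under 1 CPM, and 280 are protein-coding genes.

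The number of calls rested on single libraries. Without iE9 library 1 it was 110 (71 higher, 39 lower), 104 of them among the 311. It was 155 without dE9 library 1, 114 without dE9 library 3, 168 without iE9 library 2 and 133 without iE9 library 3. In all 6 fits that left out 1 library, 72 of the 311 genes were called. Of the 173 higher genes, 113 had their highest level in iE9 library 1. None of the 311 genes changed sign in any of the 6 fits. That was nearly fixed in advance, since in 309 of them the libraries of the lines did not overlap.

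**Figure D2:**
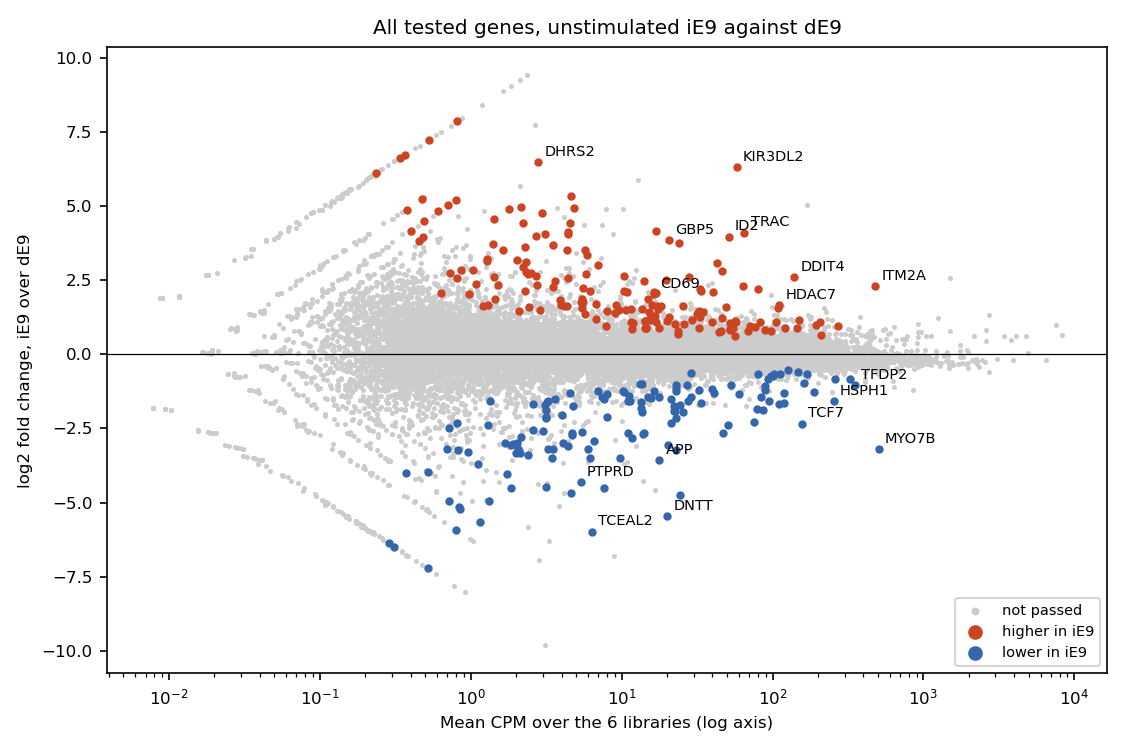
Each point is 1 of the 18073 tested genes, with its mean CPM over the 6 libraries (log axis) and its log2 fold change of iE9 over dE9; red genes passed as higher in iE9 (173), blue as lower (138). The called genes reach from a mean under 1 CPM up to MYO7B, whose highest single library was dE9 library 1 at 1250 CPM. Genes of still higher level such as MT-CO1 are grey, and the straight lines of points at the left are genes with few counts in one line.

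Among the genes with the largest rises were receptors of natural killer and T cells. KIR3DL2, an inhibitory receptor for HLA class I molecules, measured 1.11, 1.87 and 1.3 CPM in dE9 and 178, 86.5 and 77.7 CPM in iE9, a log2 of 6.30 ± 0.47 (adjusted p = 1.84e-05). All 3 iE9 libraries were far above all dE9 libraries and above WT (4.76 and 2.55 CPM). KIR genes are near-identical to each other, so reads may be assigned to the wrong member of the family. KLRD1, which encodes the CD94 chain of NKG2 receptors, measured 0.0616, 0.187 and 0.395 CPM in dE9 and 17.7, 5.82 and 3.76 CPM in iE9, a log2 of 5.35 ± 0.89 (adjusted p = 0.00754). Its highest value was in iE9 library 1, without which its adjusted p was 0.0425. The genes with the largest rises were chosen among called genes without overlap between the lines, so their separation is not a result. DHRS2, a short-chain dehydrogenase, had 3 counts over the 3 dE9 libraries and 275 over the 3 iE9 libraries. That is a ratio of 97.8 with a 95% counting interval of 33.1 to 477, which covers counting error only.

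The T cell receptor alpha chain was among them. TRAC, its constant segment (chr14:22547506-22552154), measured 2.77, 15 and 3.44 CPM in dE9 and 149, 81.5 and 140 CPM in iE9, a log2 of 4.10 ± 0.62 (adjusted p = 0.00418). TRAV8-4, the variable segment of the Jurkat receptor, measured 0.739, 3.55 and 0.96 CPM in dE9 and 40.8, 19 and 35.8 CPM in iE9 (log2 4.14 ± 0.59, adjusted p = 0.00316). Both segments were highest in iE9 library 1, and both were highest within dE9 in library 2. WT lay between the lines, at 21.1 and 15.6 CPM for TRAC.

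ID2, an inhibitor of E protein transcription factors, measured 6.84, 9.16 and 2.37 CPM in dE9 and 89.3, 144 and 56.1 CPM in iE9 (log2 3.97 ± 0.62, adjusted p = 0.00541). GBP5, an interferon-inducible GTPase that promotes inflammasome assembly, measured 4.13, 1.96 and 1.86 CPM in dE9 and 38.4, 35.8 and 40.6 CPM in iE9 (log2 3.86 ± 0.36, adjusted p = 0.000168). The iE9 libraries of GBP5 lay closer together than those of ID2. JUP, which encodes the junction protein plakoglobin, lay at 2.6 to 4.63 CPM in the dE9 libraries and at 33.1 to 54.3 CPM in the iE9 libraries (log2 3.76 ± 0.56). The others of the 15 largest rises were SNX20 (log2 4.94), LINC01748 (4.77), CD248 (4.43), ACSL5 (4.13), IL22RA2 (4.05), CCRL2 (4.05) and ADRB1 (3.69). The call of ACSL5 was lost without dE9 library 3 or iE9 library 1 (adjusted p = 0.0689 and 0.0646), and that of IL22RA2 without dE9 library 1, dE9 library 3 or iE9 library 1 (adjusted p = 0.0687, 0.0668 and 0.0598). The other 13 of the 15 kept theirs in all 6 fits.

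The largest falls included genes with even and with uneven libraries. PTPRD, a receptor-type tyrosine phosphatase, measured 11, 11.2 and 8.53 CPM in dE9 and 0.869, 0.42 and 0.209 CPM in iE9 (log2 -4.31 ± 0.47, adjusted p = 0.000595). APP, the amyloid precursor protein, measured 43.1, 21.7 and 33.5 CPM in dE9 and 3.53, 2.1 and 2.65 CPM in iE9 (log2 -3.57 ± 0.34, adjusted p = 0.000168). The largest falls, too, were chosen among called genes without overlap between the lines. APP was higher in WT than in dE9, at 84 and 94.9 CPM. MAL, a membrane proteolipid of T cells, fell from 6.35, 7.67 and 29.8 CPM in dE9 to 0.923, 0.42 and 0.557 CPM in iE9 (log2 -4.51 ± 0.66). RAB3IL1 (log2 -3.51) and PTPN3 (log2 -3.21), like these 3 genes, were called in all 6 fits without 1 library.

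DNTT, the template-independent polymerase that adds bases at receptor gene joints, differed widely among the dE9 libraries. It measured 2.34, 34.7 and 80.6 CPM in dE9 and 1.09, 1.1 and 0.418 CPM in iE9 (log2 -5.46 ± 0.99, adjusted p = 0.0127). The lowest dE9 library was close to the iE9 libraries, although no values overlapped, and WT was at 80.2 and 67.1 CPM. The call was lost without iE9 library 1, 2 or 3 in turn (adjusted p = 0.0646, 0.0522 and 0.0673). MYO7B, a myosin and the called gene with the highest level, measured 1250, 405 and 1090 CPM in dE9 and 75.4, 105 and 117 CPM in iE9 (log2 -3.21 ± 0.69, adjusted p = 0.0321). It was called in 1 of the 6 fits, the one without dE9 library 2, in which it was lowest among the dE9 libraries. Of the remaining large falls, SLC6A15 (log2 -3.49) kept its call in 5 fits and lost it without iE9 library 1 (adjusted p = 0.0543), and TCEAL2 (-5.98) lost it without each iE9 library (0.0741, 0.0507 and 0.0644). TENT5C (-4.73) kept it in 2 fits, CD9 (-4.67), GPRASP1 (-4.49), RFX8 (-3.50) and RMST (-3.22) in 1, and WWC1 (-3.18) in none. The adjusted p of these 6 genes was at most 0.177 in those fits, and each of them lost its call without iE9 library 1, 2 or 3.

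**Figure D3:**
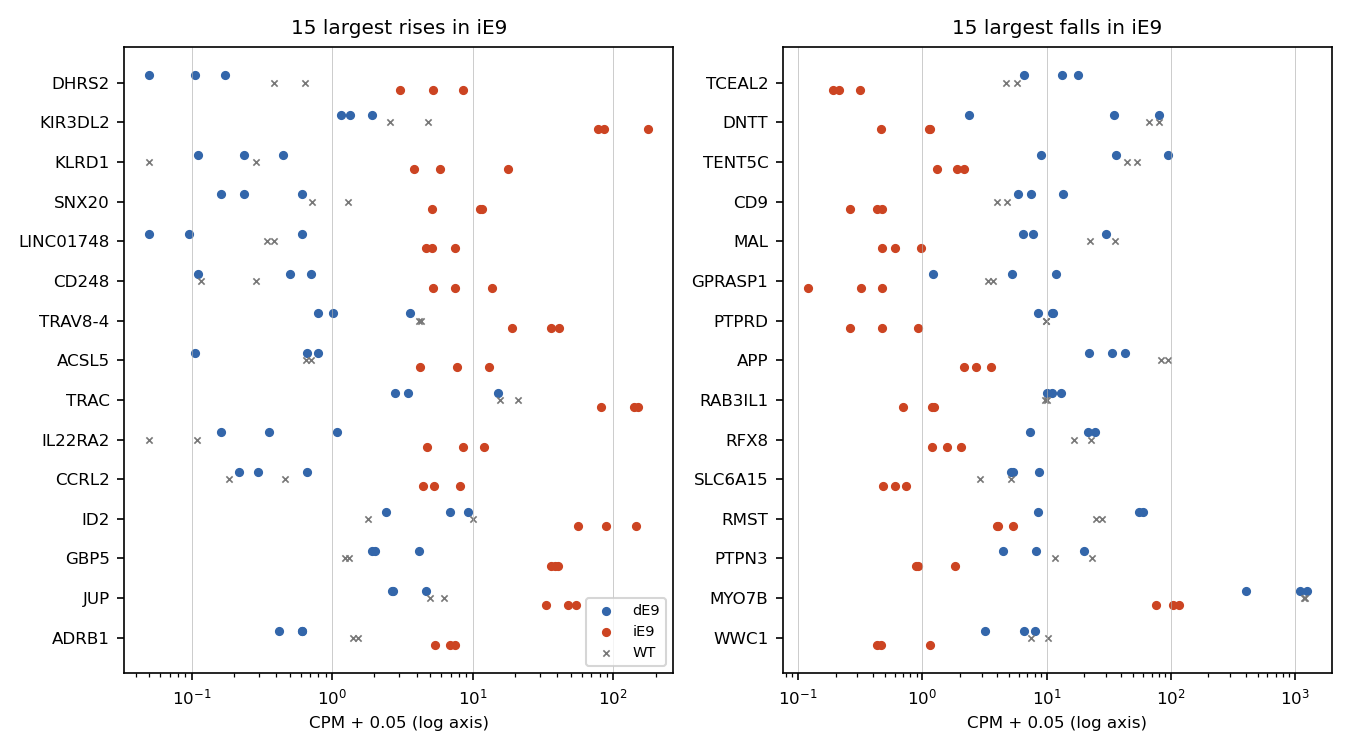
CPM plus 0.05 (log axis) in each library for the 15 genes with the largest rises (left) and the 15 with the largest falls (right); blue, dE9; red, iE9; grey crosses, WT. Red and blue points do not overlap because the 30 genes were chosen that way, and the blue points of DNTT, TENT5C and RMST are spread widely.

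The genes with the highest levels, among called genes without overlap between the lines, included the following. ITM2A, a membrane protein of developing T cells, measured 181, 139 and 167 CPM in dE9 and 1190, 598 and 590 CPM in iE9 (log2 2.29 ± 0.30, adjusted p = 0.00226). DDIT4, a stress-induced inhibitor of mTORC1 signalling, measured 38.2, 29 and 49.9 CPM in dE9 and 177, 294 and 243 CPM in iE9 (log2 2.61 ± 0.26, adjusted p = 0.000235). WT was near dE9 for ITM2A (207 and 229 CPM) and near iE9 for DDIT4 (165 and 142 CPM). ARHGAP45 (log2 0.95), IVNS1ABP (0.65), HCLS1 (1.10), STAT6 (1.0), ICAM3 (1.15) and GPR174 (0.90) were also higher in iE9, each with its call lost in 3 to 5 of the 6 fits without 1 library. Without iE9 library 1 the calls of ARHGAP45, IVNS1ABP, STAT6, ICAM3 and GPR174 were lost (adjusted p = 0.053 to 0.186), and without dE9 library 3 those of all 6 (0.0607 to 0.176).

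HSPH1, a cochaperone of HSP70, measured 297, 384 and 464 CPM in dE9 and 159, 116 and 110 CPM in iE9 (log2 -1.57 ± 0.20, adjusted p = 0.00217). TFDP2, a partner of E2F factors, fell from 483, 440 and 490 CPM to 188, 254 and 244 CPM (log2 -1.04 ± 0.18, adjusted p = 0.00839). EIF3G, a subunit of a translation initiation factor, fell from 334, 336 and 326 CPM to 161, 200 and 190 CPM (log2 -0.85 ± 0.13, adjusted p = 0.00402). These 3 genes, chosen among called genes without overlap between the lines, were called in all 6 fits without 1 library. BCL7A (log2 -1.27) lost its call without iE9 library 1 (adjusted p = 0.053). FAM133B (log2 -0.97) and PTP4A2 (-0.84) were called in 1 of those fits and PCM1 (-0.66) in none, with adjusted p up to 0.138.

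T cell surface molecules were examined next by lists, whose tested members are set beside all genes tested (0.957% higher, 0.764% lower, median log2 0.01). Of 8 activation antigens, 2 were higher, and the list's median log2 was 1.04 (1 higher and 0.75 without iE9 library 1). CD69, an early activation antigen, measured 5.79, 7.2 and 6.21 CPM in dE9 and 31.1, 18.8 and 29.2 CPM in iE9 (log2 2.04 ± 0.30, adjusted p = 0.00394), with WT at 10.8 and 12.7 CPM. CRTAM had only 2 counts in dE9 and 39 in iE9 (ratio 20.8, 95% counting interval 5.39 to 178), and it was called in 1 of the 6 fits without 1 library, the one without iE9 library 2 (adjusted p = 0.0419 to 0.158 over the 6). IL2RA, the inducible interleukin-2 receptor chain, stayed at or below 0.217 CPM in all 6 libraries.

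Of 12 costimulatory and inhibitory receptors, 1 was higher and 7 had iE9 libraries that all lay above all dE9 libraries, against 11.4% of all genes; the median log2 was 1.56 (1.5 with the member at 0 counts in a line set to its bound), or 1.11 without iE9 library 1. The called gene was PDCD1, the inhibitory receptor targeted in checkpoint therapy, at 0.0616, 0 and 0.282 CPM in dE9 and 3.8, 3.2 and 3.48 CPM in iE9 (log2 4.89 ± 0.73, adjusted p = 0.00394). The costimulatory receptor CD28 measured 13.7, 48.3 and 6.1 CPM in dE9 and 106, 38.8 and 49.3 CPM in iE9. The lines overlapped, and the difference did not pass (log2 1.5 ± 0.64, adjusted p = 0.28). CD96 did not pass either (log2 1.0 ± 0.59, adjusted p = 0.454).

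Among 24 T cell surface and lineage antigens, 2 were higher and the median log2 was 1.2 (1 higher and 0.77 without iE9 library 1). CD38, an ectoenzyme of thymocytes and activated T cells, measured 23.1, 12.3 and 10.4 CPM in dE9 and 79.3, 57.4 and 58.2 CPM in iE9 (log2 2.09 ± 0.29, adjusted p = 0.00316). CD48, the ligand of the SLAM family member CD244, rose from 2.53, 7.67 and 2.43 CPM to 36.4, 16.7 and 18.4 CPM (log2 2.48 ± 0.51, adjusted p = 0.0268), a call lost without dE9 library 1, dE9 library 3 or iE9 library 1 (0.0997, 0.114 and 0.111). CD5, a negative regulator of receptor signalling, was 1.97 CPM in dE9 library 1 against 84.1 and 51.7 CPM in the other 2, and 82.1 to 145 CPM in iE9, and it did not pass (adjusted p = 0.61). Of 8 tested SLAM family receptors and adaptors, SLAMF6 (log2 1.62 ± 0.24, adjusted p = 0.00394) and LY9 (log2 3.02 ± 0.52, adjusted p = 0.00914) were higher. SLAMF6 kept its call in all 6 fits without 1 library, and LY9 lost it without dE9 library 3 (adjusted p = 0.0583).

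The T cell receptor complex held a single call. Of 22 members of the complex and its proximal signalling, TRAC alone was called, and the list's median log2 was 0.5, or 0.31 without iE9 library 1. CD3E, an invariant chain of the complex, measured 340, 429 and 372 CPM in dE9 and 843, 452 and 403 CPM in iE9, and these values overlapped (log2 0.57 ± 0.26, adjusted p = 0.308). TRBC1, the constant segment of the beta chain, measured 740, 825 and 342 CPM in dE9 and 1020, 784 and 924 CPM in iE9 (adjusted p = 0.493).

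Cytokine receptors held 4 called genes of 19 tested, all higher in iE9, with a median log2 of 0.81; without iE9 library 1 there were 2 called genes and the median was 0.41. IL4R measured 12.3, 7.48 and 6.83 CPM in dE9 and 31.2, 21.8 and 28.8 CPM in iE9 (log2 1.62 ± 0.23, adjusted p = 0.00316). IL21R measured 0.555, 1.78 and 0.734 CPM in dE9 and 16.7, 8.71 and 6.75 CPM in iE9 (log2 3.36 ± 0.50, adjusted p = 0.00394). Both receptors signal through the common gamma chain, and both were called in all 6 fits without 1 library. IL12RB1 (log2 2.65 ± 0.48, adjusted p = 0.0127) and IFNGR1 (log2 2.21 ± 0.46, adjusted p = 0.0279) lost their calls without dE9 library 1, dE9 library 3 or iE9 library 1 (adjusted p up to 0.122). IFNGR1, a chain of the interferon-gamma receptor, was 228 CPM in iE9 library 1 and 98.2 and 68 CPM in the other 2. None of 10 cytokines and chemokines was called, although 8 had a log2 above 0, against 9156 of all 18073 genes. Their median log2 was 1.0, or 0.83 with the member at 0 counts in a line set to its bound. It was 0.89 without iE9 library 1. TGFB1 was at log2 0.78 (adjusted p = 0.141), and IL32 ranged from 11.8 to 246 CPM within dE9.

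Of 25 homing receptors, integrins and selectins, 2 were higher and 1 lower, with a median log2 of 0.5. Without iE9 library 1, 1 was higher and 0 lower, and the median was 0.28. CCR7, the chemokine receptor for entry into lymph nodes, measured 0.185, 0.14 and 0.0565 CPM in dE9 and 7.93, 2.2 and 2.51 CPM in iE9 (log2 4.98 ± 0.78, adjusted p = 0.00541). The integrin ITGA5 fell (log2 -1.42 ± 0.33, adjusted p = 0.0422), with dE9 libraries at 11.9 to 18.7 CPM and iE9 libraries at 4.14 to 9.05 CPM, and kept its call in 2 of the 6 fits, losing it without dE9 library 1 or 3 or iE9 library 1 or 2 (adjusted p up to 0.164). The third gene was ICAM3, given above.

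**Figure D4:**
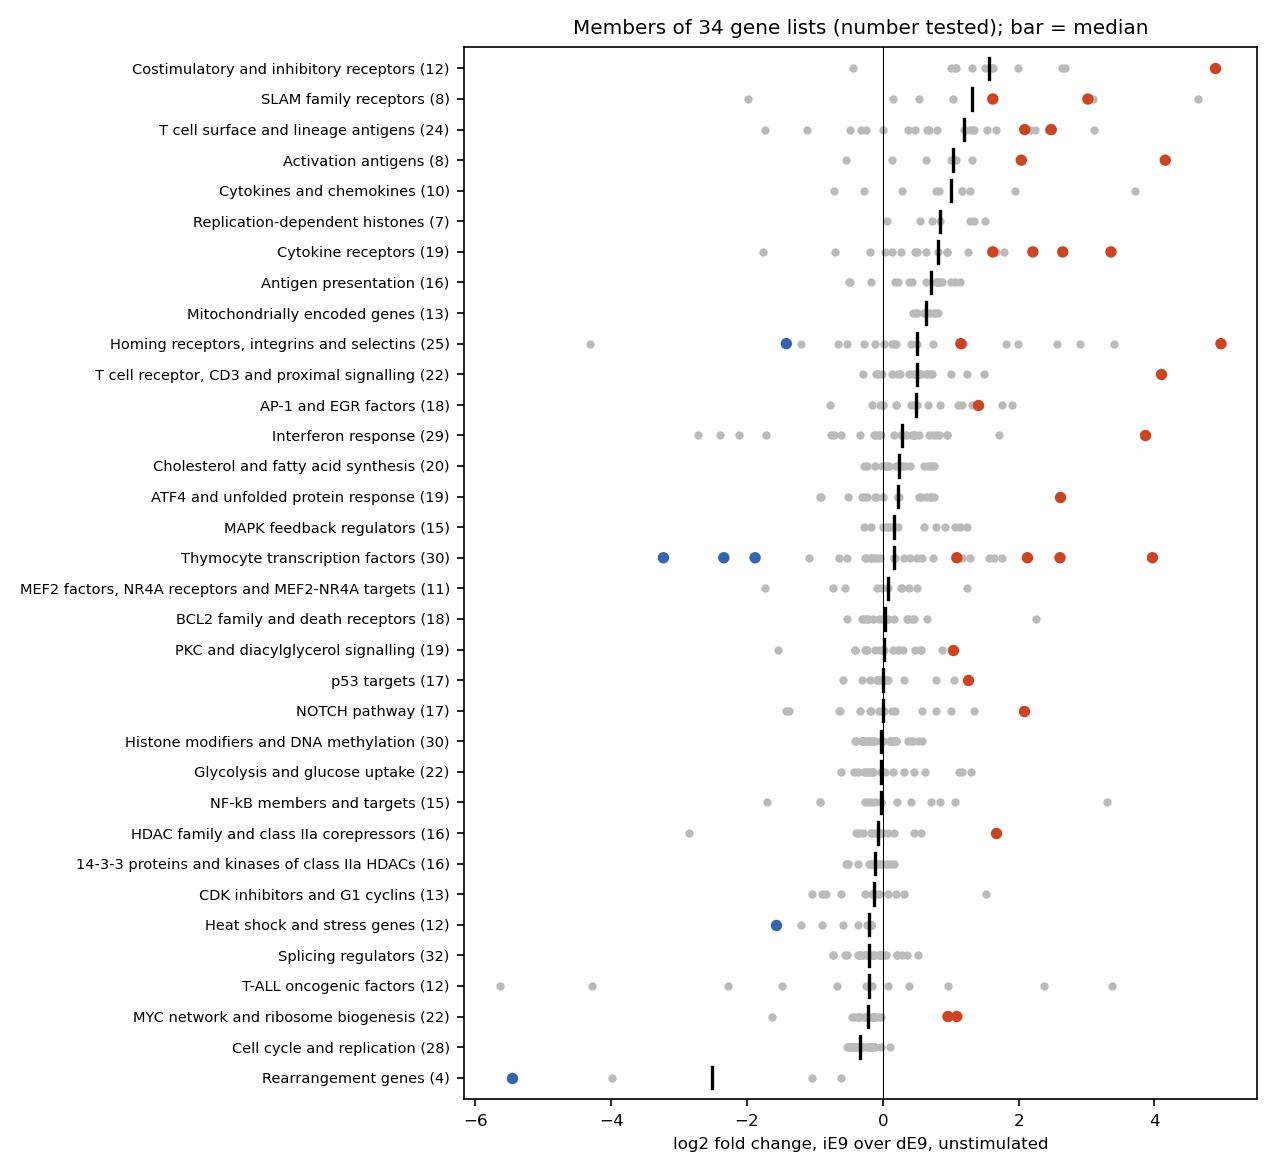
Log2 fold change of iE9 over dE9 for every tested member of the 34 lists, with the number tested in brackets and a black bar at the median; red members passed as higher, blue as lower, grey did not pass. The medians of the surface receptor lists lie above 0, at 1.2 to 1.56 for T cell surface antigens, SLAM receptors and costimulatory receptors, and most members of every list are grey.

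Transcription factors of thymocytes changed in both directions: of 30 tested, 4 were higher and 3 lower, with a median log2 of 0.17. BACH2, a repressor of effector differentiation, measured 12.4, 10.9 and 14.3 CPM in dE9 and 55.9, 45.7 and 63.3 CPM in iE9 (log2 2.13 ± 0.31, adjusted p = 0.00378). RUNX2, a RUNX family factor, measured 11.2, 10.3 and 2.2 CPM in dE9 and 49, 46.2 and 49.8 CPM in iE9 (log2 2.61 ± 0.41, adjusted p = 0.00541). Both were called in all 6 fits without 1 library, as was ID2. TCF7, which encodes the TCF1 factor of early T cell commitment, fell from 116, 254 and 418 CPM in dE9 to 38.1, 53.2 and 64.6 CPM in iE9 (log2 -2.34 ± 0.43, adjusted p = 0.0142). Its call was lost without dE9 library 3, iE9 library 1 or iE9 library 2 (adjusted p = 0.0661, 0.0813 and 0.0528). The remaining called members, named after their values were seen, were IKZF2 (log2 1.09), ETS2 (-1.88) and ERG (-3.23), each lost in 4 or 5 of the 6 fits, always including those without dE9 library 3, iE9 library 1 or iE9 library 3. Without iE9 library 1 the list had 3 higher and 0 lower members and a median of 0.3.

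Of 4 rearrangement genes DNTT alone was called, and 0 had a log2 above 0. The list's median log2 was -2.51, or -3.34 without iE9 library 1, where 0 were called. The recombinase genes RAG1 and RAG2 and the fourth member, PTCRA, did not pass. RAG1 measured 499, 314 and 157 CPM in dE9 and 244, 229 and 159 CPM in iE9 (log2 -0.62 ± 0.31, adjusted p = 0.358), and RAG2 was at log2 -1.04 ± 0.38 (adjusted p = 0.203). None of 12 T-ALL oncogenic factors was called. In 3 of the 12 all iE9 libraries lay above all dE9 libraries, against 11.4% of all genes. In 2 they all lay below, against 10.9%. TAL1, the driver factor of Jurkat cells, was at log2 -0.25 (adjusted p = 0.656). Of 17 NOTCH pathway genes, only the ligand DLL1 passed, with dE9 libraries at 0.123 to 0.452 CPM and iE9 libraries at 0.815 to 1.39 CPM (log2 2.08, adjusted p = 0.0353). Its call stood in 1 of the 6 fits without 1 library, the one without dE9 library 3. NOTCH1 was at log2 -0.33 (adjusted p = 0.593).

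The partners of HDAC7 showed no call. Of 16 deacetylases and class IIa corepressors, HDAC7 alone was called, and the list's median log2 was -0.07. HDAC1 was at 0.00 ± 0.17 and HDAC2 at -0.35 ± 0.23. None of 16 genes for 14-3-3 proteins and kinases of class IIa enzymes was called (median -0.12, or -0.03 without iE9 library 1). In 5 of the 16 all iE9 libraries lay below all dE9 libraries, against 10.9% of all genes, and in 0 they all lay above. YWHAE was at log2 -0.36 ± 0.23 and YWHAZ at -0.10 ± 0.23. None of 11 MEF2 factors, NR4A receptors and genes of that axis was called (median 0.08). MEF2A measured 45.2, 41.2 and 45.5 CPM in dE9 and 37.4, 42.6 and 44.1 CPM in iE9 (log2 -0.09 ± 0.14), and CABIN1, a MEF2 corepressor, was at 0.08 ± 0.17. NR4A1, an orphan receptor that HDAC7 is known to repress in thymocytes, was low in both lines, with dE9 libraries at 4.31 to 4.58 CPM and iE9 libraries at 4.78 to 8.98 CPM. The iE9 libraries all lay above the dE9 libraries, but the difference did not pass (log2 0.50 ± 0.50, adjusted p = 0.686).

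Signalling genes gave single calls. Of 18 AP-1 and EGR factors, EGR1, an immediate-early factor, was higher, from 3.88, 6.59 and 4.29 CPM to 8.85, 11.4 and 19.1 CPM (log2 1.40 ± 0.28, adjusted p = 0.0252). WT was above dE9 for this gene, at 16.2 and 16.1 CPM, and the call was lost without dE9 library 1, dE9 library 3 or iE9 library 3 (adjusted p = 0.0928, 0.104 and 0.0906). Of 19 genes of protein kinase C and diacylglycerol signalling, PRKCH was higher (log2 1.03 ± 0.22, adjusted p = 0.0325), a call lost without dE9 library 1 or 3 or iE9 library 2 or 3 (up to 0.124). PRKCA and RASGRP1 were at log2 0.24 and 0.02 (adjusted p = 0.733 and 0.983). None of 15 MAPK feedback regulators and none of 15 NF-kB members and targets was called, with medians of 0.17 and -0.03. Without iE9 library 1 the first list had 1 higher member and a median of 0.32. Of 29 interferon response genes GBP5 alone was called, and the median log2 was 0.28 (0.32 without iE9 library 1). In 8 of the 29 all iE9 libraries lay above all dE9 libraries, against 11.4% of all genes. In 2 they all lay below, against 10.9% of all genes. ISG15 was at log2 0.45 (adjusted p = 0.53).

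Growth and stress lists held few calls. None of 28 cell cycle and replication genes was called, although 27 of them had a log2 at or below 0. In 14 of the 28 the dE9 libraries all lay above the iE9 libraries, against 10.9% of all genes. The list's median log2 was -0.34, or -0.24 without iE9 library 1, and MCM7 was at -0.46 (adjusted p = 0.306). Among 22 genes of the MYC network and ribosome biogenesis the median was -0.22 (-0.14 without iE9 library 1), and the 2 called genes were MXD4 (log2 1.09, adjusted p = 0.0124) and MXD1 (log2 0.96, adjusted p = 0.0421), which encode antagonists of MYC. MXD4 lost its call without dE9 library 3 (adjusted p = 0.0689), and MXD1 in 5 of the 6 fits (up to 0.17), all but the one without iE9 library 2. Of 13 cyclin-dependent kinase inhibitors and G1 cyclins none was called, and CDK6 was at log2 -0.89 (adjusted p = 0.0606).

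Of 19 ATF4 and unfolded protein response genes DDIT4 was the only call, and of 12 heat shock and stress genes HSPH1 was the only one. Of 17 p53 targets FAS, a death receptor, was higher, at 14.4, 9.63 and 12.1 CPM in dE9 and 41.7, 21.6 and 23.3 CPM in iE9 (log2 1.26 ± 0.29, adjusted p = 0.0438). It was called in 1 of the 6 fits without 1 library, the one without iE9 library 2, and its adjusted p reached 0.187. FAS is not on the list of BCL2 family members and death receptors. No gene was called among the 18 tested members of that list (median 0.04), 20 genes of cholesterol and fatty acid synthesis (0.24), 22 of glycolysis (-0.03), 32 splicing regulators (-0.2), 30 histone modifiers and DNA methylation genes (-0.02) or 7 replication-dependent histones (0.85), which are counted poorly in polyadenylated RNA. Of the splicing regulators, 11 had iE9 libraries all below the dE9 libraries, against 10.9% of all genes. In 1 they were all above, against 11.4%. For histone modifiers and DNA methylation genes these counts were 8 and 4.

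Among the lists without calls, the medians of mitochondrially encoded and antigen presentation genes were lower with iE9 library 1 left out. The 13 mitochondrially encoded genes had a median log2 of 0.63, or 0.13 without that library, and MT-CO1 measured 16000 CPM there against 7030 and 7050 CPM in the other iE9 libraries. The 16 antigen presentation genes had a median of 0.71, or 0.33 without it, and B2M measured 1950 CPM there against 742 and 978 CPM.

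Markers of other cell types were summed in each library. Of 12 natural killer and cytotoxic cell markers 11 were detected, summing to 19.4 to 38.2 CPM in the dE9 libraries and 33.4 to 136 CPM in the iE9 libraries, and the receptor FCGR3A had 0 counts. Of its 9 tested members KLRD1 and NKG7 were called as higher, against 0.957% of all genes. The list's median log2 was 3.2, or 3.0 with the member at 0 counts in a line set to its bound. Without iE9 library 1 it was 1.94. NKG7 (log2 3.51 ± 0.76, adjusted p = 0.0327) lost its call without dE9 library 1 or 3 or iE9 library 1 or 2 (adjusted p up to 0.14). Of 9 B cell markers 7 were detected, summing to 9.32 to 27.1 CPM over the dE9 libraries and 47.1 to 134 CPM over the iE9 libraries, with PAX5 and CD22 at 0. Of the 4 tested B cell markers EBF1 alone was called (log2 1.77 ± 0.34, adjusted p = 0.0195). It kept its call only without iE9 library 2 or 3, and reached 0.0886 in the other fits without 1 library. CD79A made up most of the B cell sum, at 119, 42.4 and 38.1 CPM in iE9 (log2 2.40, adjusted p = 0.171).

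Myeloid markers (9 of 11 detected, MPO and S100A8 at 0) summed to 1.68 to 5.67 CPM over the dE9 libraries and 6.14 to 8.63 CPM over the iE9 libraries. The sums were 11.4 to 14.2 and 9.05 to 19.9 CPM for all 6 mast cell and basophil markers, and 16.7 to 32.7 and 28.7 to 38.9 CPM for all 8 fibroblast and endothelial markers. For erythroid and megakaryocytic markers (7 of 10 detected, HBG1, HBG2 and GP9 at 0) they were 3.84 to 4.01 and 3.91 to 5.99 CPM, and for epithelial markers (6 of 7, CDH1 at 0) 0.935 to 2.59 and 1.9 to 2.46 CPM. In bulk RNA, more cells of a kind and more RNA per cell cannot be told apart, and the part of other cells in the changes of KLRD1, NKG7 and EBF1 was not tested.

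WT was set beside the 2 lines. For 297 of the 311 called genes the mean of the 2 WT libraries was nearer to dE9 than to iE9 on the log2 scale (with 0.05 CPM added), and for 14 it was nearer to iE9. For 125 it lay beyond dE9, away from iE9. The 311 genes were chosen by the difference between iE9 and dE9, and the same share over all tested genes was not computed. The libraries also scattered more in iE9 than in dE9 (median SD of log2 levels 0.358 and 0.256). iE9 against WT gave 249 calls (1.38%; 122 higher, 127 lower). dE9 against WT gave 0 calls with edgeR, with 560 genes at an unadjusted p under 0.05, 20 calls with DESeq2 and 41 with limma voom. These comparisons share libraries with the main one, so only values are set side by side. KIR3DL2 was at log2 4.97 in iE9 against WT and -1.33 in dE9 against WT, GBP5 at 4.95 and 1.09, ID2 at 4.03 and 0.06, and PTPRD at -4.26 and 0.05. DNTT was at -6.36 in iE9 against WT and -0.91 in dE9 against WT, and TCF7 at -2.22 and 0.12. DDIT4 was the reverse case, at 0.63 in iE9 against WT and -1.98 in dE9 against WT (adjusted p = 0.3 and 0.0529), and EGR1 stood at -0.30 and -1.70. APP was lower than WT in both lines, at -5.02 in iE9 and -1.45 in dE9 (adjusted p = 1.58e-05 and 0.727).

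After 48 h of PMA, 471 genes (2.61%; 199 higher, 272 lower) differed between the same lines. Of these, 109 were also called without PMA, which is 35% of the unstimulated calls and 23.1% of the PMA calls, and all 109 had the same direction (46 higher, 63 lower). The PMA libraries are other libraries, but same-numbered libraries of a line deviated together across treatments (correlation of deviations 0.3, 0.3 and 0.24 in dE9, 0.44, 0.23 and 0.19 in iE9), so the 2 comparisons are not independent. KIR3DL2 (log2 6.30 without and 6.61 with PMA), LINC01748 (4.77 and 5.67), ABI3 (3.17 and 4.13) and WDR60 (1.17 and 1.17) were higher in both. DHRS2 was also higher after PMA, at log2 4.13 ± 0.59. PTPRD (-4.31 and -5.12), APP (-3.57 and -4.06), ZNF618 (-2.66 and -4.13), GAS6-AS1 (-2.57 and -3.90) and HSPH1 (-1.57 and -1.41) were lower in both. HDAC7 itself was at log2 0.90 after PMA (adjusted p = 0.0393).

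For 249 of the 311 genes the difference was smaller after PMA. GBP5 went from log2 3.86 to 0.97, ID2 from 3.97 to 1.40, PDCD1 from 4.89 to 0.94, CCR7 from 4.98 to 1.46 and NKG7 from 3.51 to 0.43, and none of these 5 passed after PMA (adjusted p = 0.109 to 0.773). The 311 genes were chosen by their difference without PMA. The change of the difference itself was tested by an interaction term, and its outcome depended on how the libraries were modelled. With edgeR and no block 0 genes passed, with a smallest adjusted p of 0.234 and 1239 genes at an unadjusted p under 0.05, while DESeq2 called 116 genes and limma voom 0. With same-numbered libraries of a line as a block, which was chosen after seeing the data, 61 genes passed in edgeR (0.338% of those tested; smallest adjusted p 0.00551; 2680 at an unadjusted p under 0.05). In 43 of them the log2 of iE9 over dE9 was higher without PMA and in 18 it was lower, and 16 of the 61 were among the 311. In this blocked fit the log2 of GBP5 was higher without PMA by 2.89 ± 0.23 (SE, adjusted p = 0.00551) and that of CD48 by 2.14 ± 0.24 (adjusted p = 0.0229). These calls rested on single pairs of libraries: leaving out both iE9 libraries numbered 1 gave 0 calls, those numbered 2 or 3 gave 2 each, and both dE9 libraries numbered 1, 2 or 3 gave 1411, 24 and 112. Without the iE9 libraries numbered 1 the adjusted p of GBP5 was 0.0875 and that of CD48 0.14.

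**Figure D5:**
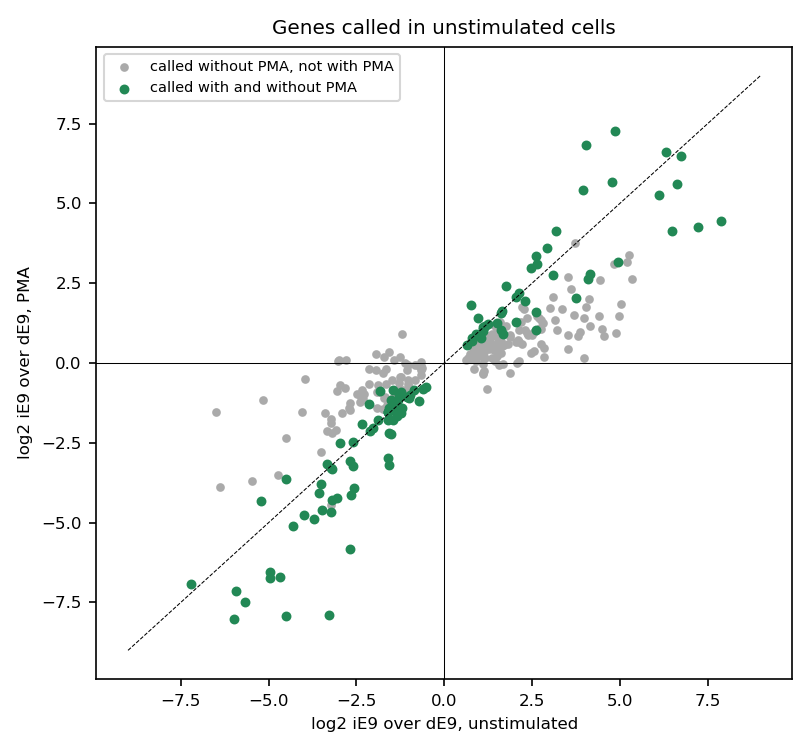
Log2 fold change of iE9 over dE9 without PMA (horizontal) and after PMA (vertical) for the 311 genes called without PMA; green genes were called in both (109), grey ones only without PMA, and the dashed line marks equal values. All green points lie in the upper right or lower left of the plot, and 249 of the 311 genes lie nearer to 0 on the vertical axis.

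Called genes lay on every autosome and on chromosome X. The share called ran from 0.6% of the tested genes of chromosome 15 to 3.03% of chromosome 13, and chromosome medians of log2 ran from -0.08 to 0.09. Among genes next to each other in the order of tested genes, 13 pairs and 1 run of 3 were called in the same direction, and there was no longer run. How many such neighbours would be met without any grouping was not computed, so whether called genes cluster was not tested. The run of 3 was TMEM255B, GAS6-AS1 and GAS6 on chromosome 13 (log2 -2.12, -2.57 and -2.98), and the pairs included IL4R with IL21R, IL22RA2 with IFNGR1, ID2-AS1 with ID2, GPR174 with ITM2A and, among the lower genes, ERG with ETS2. The strandedness of the libraries is not given in the sources used here, so reads of an antisense gene and its partner (ID2-AS1 and ID2, GAS6-AS1 and GAS6) may be mixed. Within 1 Mb of HDAC7, none of the 25 other tested genes was called, and their log2 values ran from -1.29 to 2.09 with a median of 0.01.

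Promoters were searched for the MEF2 consensus, since MEF2 factors are the main DNA-binding partners of HDAC7. RefSeq promoters of 300 bases (250 before to 50 after the start, GRCh38.p14, both strands) held a match in 2.54% of 197 promoters of higher genes and 2.37% of 169 promoters of lower genes, against 1.55% of 16482 promoters of tested genes and 2.99% of all 35116. The counts behind these shares are 5 and 4 promoters, so they carry little weight. Promoters were found for 120 of the 173 higher and 91 of the 138 lower genes. A match is a description of the letters and not a bound site. Matches in genes with the largest folds, chosen after their values were seen, are shown, with the match in capitals and 10 bases on either side.
PTCH1 promoter (chr9:95509380-95509409, minus strand): tgctaagcagCTAATAATAGtcatgtttgc
PTPN3 promoter (chr9:109417986-109418015, minus strand): ttccagttcaTTAAAATTAAataagattta
PPFIBP2 promoter (chr11:7576974-7577003, plus strand): agagcagcacTTATTTTTAGtcttctcccc
PTCH1, the Hedgehog receptor, was higher in iE9 (log2 2.05 ± 0.41, adjusted p = 0.0234), and PTPN3 and PPFIBP2 were lower (log2 -3.21 and -3.33). The calls of PTCH1 and PPFIBP2 stood in 2 of the 6 fits without 1 library, and were lost without iE9 library 1 or 3 among others (adjusted p up to 0.119).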

How the data were processed

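Polyadenylated RNA of 16 Jurkat libraries was used, 3 of each edited line and 2 of WT per treatment. Salmon, DESeq2 and the hg38 build are named in the submitters' processing notes; their versions are not given in these sources. The authors deposited, per the file headers, estimated counts, TPM values and effective lengths for every transcript. All 205870 transcripts matched GENCODE release 29 by identifier and length. The sums of TPM per gene equalled the authors' deposited gene table of TPM, which had 16 columns used and 0 not used.

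Estimated counts were summed per gene, rounded to whole numbers and tested with edgeR 4.0.16 (R 4.3.3): TMM factors, filterByExpr, 1 coefficient per group over all 16 libraries, so that the spread is shared, and the two-sided quasi-likelihood F test with Benjamini-Hochberg adjustment over 18073 genes. Adjusted p-values are from this test where no other tool is named, and a gene is called at an adjusted p under 0.05. Exon 9 shares were computed from TPM of the transcripts that span the exon. Where a gene had 1 to 3 counts in a line, the ratio is given with an exact counting interval. Where it had 0, the bound uses a floor of 3 counts per library. Both cover counting error only.

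Genes were named by rule: always HDAC7 and the T cell genes CD3E, CD5, CD28, CD69, IL2RA and NR4A1; the 15 largest changes per direction with no overlap of libraries, at least 5 CPM in the higher line and a symbol that is neither clone-based nor a pseudogene; the 8 with the highest level per direction; up to 4 called members of each list, or up to 2 of highest level where fewer than 2 were called; the 5 per direction with the smallest adjusted p in both treatments; the 6 per direction with the highest level among genes at 0 counts in the other line. The 15 and the 8 per direction were taken from called genes with no overlap of libraries, so lack of overlap in them is not a result. The 34 gene lists and 8 marker lists are those named in the report. The labels do not say that their numbers pair the libraries of a line across treatments. Deviations of same-numbered libraries correlated at 0.19 to 0.44, and those of differently numbered ones at -0.31 to 0.15. In iE9, libraries 2 and 3 gave 0.15 and 0.08 with each other's number, so pairing there is uncertain. The test of the difference between treatments was repeated with same-numbered libraries as a block. The members, lists and tests were chosen with earlier results of these data known.

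On data simulated from these libraries for this comparison (16947 genes), the fit called 10.9% of 92 genes changed by a log2 of 1, 82.3% of 96 changed by a log2 of 2 and 2 unchanged genes. The simulation gave all genes 1 common spread and held no library that stood apart like iE9 library 1. These rates may therefore not hold for the real libraries. Alternatives were each library left out, another scaling, filters, DESeq2 1.42.0, limma 3.58.1 on counts and on log2 of TPM plus 1 or 0.1, the 6 libraries alone, effective lengths, a replicate block, and mitochondrially encoded genes left out. SciPy 1.17.1 gave the exact permutation test.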

Additional observations from a re-analysis of the deposited data

Results flagged for a closer look

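For 7 of the named genes the log2 of iE9 over dE9 differed between cells without and with PMA, tested with same-numbered libraries of a line as a block in edgeR. It was higher without PMA by 2.89 for GBP5, 2.14 for CD48, 1.26 for ITM2A, 1.4 for CD38, 0.98 for ICAM3 and 3.27 for CCR7. The change for NOTCH1 was -1.19, and in the fit without a block its log2 was 0.83 after PMA and -0.33 without PMA, neither of which passed (adjusted p = 0.104 and 0.593). The adjusted p-values of the 7 differences ran from 0.00551 to 0.0465. None of them passed without both iE9 libraries numbered 1 (adjusted p = 0.0875 to 0.178), and none passed without the block.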

How the results depend on the processing

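Of the 74 named genes that were called, 31 were called under every alternative tried, among them HDAC7, whose log2 ran from 1.5 to 1.82. None of the 74 changed sign, which the lack of overlap between the lines made nearly certain. The count of 311 was 840 with DESeq2, 1319 without a filter on low counts, 161 with the 6 libraries alone, 181 with effective lengths, 149 and 174 with limma on log2 of TPM plus 1 or 0.1, and 152 without both iE9 libraries numbered 1, an alternative chosen after seeing the data. Leaving out 1 library gave 110 to 276 calls. It stayed within 1.5 times with DESeq2's size factors (301), a stricter filter (347), limma voom (272) and mitochondrially encoded genes left out (314). Of the 311 genes, 311 were also called by DESeq2, 293 without the filter, 131 with 6 libraries and 208 by voom, which called 190 higher and 82 lower. The PMA count of 471 was 1285 with DESeq2, 1801 without a filter, 47 with its 6 libraries alone, 127 with voom and 304 with effective lengths. With DESeq2 and voom, chosen after seeing the data, iE9 against WT gave 800 and 946 calls (249 by edgeR), dE9 against WT 20 and 41 (0), and the change of the difference with PMA 116 and 0 (0). That change gave 61 calls with a replicate block within each line, and 0 to 1411 calls when 1 same-numbered pair of libraries was also left out (0 without iE9 pair 1, 2 without iE9 pair 2 or 3, 1411, 24 and 112 without dE9 pair 1, 2 or 3); these fits were chosen after seeing the data. The difference in exon 9 share ran from 51.58 to 63.11 percentage points without 1 library. The causes were not tested.

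Replicate numbers did not pair the lines: deviations of same-numbered dE9 and iE9 libraries had correlations of -0.05, -0.02 and -0.04. With a replicate block the counts were 365 without PMA, 277 of them among the 311, and 508 with PMA. In the simulated data, at the depths and library numbers of this comparison but with 1 spread for all genes, 10.9% of genes with a log2 of 1 were called.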

Other observations

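Some genes had counts in 1 line only. In dE9, 192 genes had 0 counts in all 3 libraries while their iE9 mean lay above the floor of 0.165 CPM, and 30 of them had at least 3 counts in each iE9 library. In iE9, 145 genes had 0 counts while their dE9 mean lay above 0.176 CPM, and 20 had at least 3 counts in each dE9 library. Of these genes, 5 and 3 were called. POF1B, an actin-binding protein, measured 2.01, 1.63 and 1.25 CPM in iE9 and was at least 9.88-fold higher there (adjusted p = 0.00394). IYD, the iodotyrosine deiodinase of the thyroid, measured 0.76, 0.734 and 0.557 CPM and was at least 4.15-fold higher (adjusted p = 0.0112). RIMBP3C, which has near-identical copies, measured 0.739, 0.561 and 0.565 CPM in dE9 and was at least 3.53-fold lower in iE9 (adjusted p = 0.0338), a call lost in each of the 6 fits without 1 library (adjusted p = 0.0519 to 0.113). Named after their values were seen, POF1B and IYD were called in all 6 fits without 1 library. Genes of higher level that were at 0 in the other line included RNU2-2P, a small nuclear RNA entry with uneven libraries at 0.326, 0.21 and 12.3 CPM in iE9, and CSPG4P5, a pseudogene with more even libraries at 1.54, 2.01 and 1.13 CPM in dE9. Neither was called (adjusted p = 0.139 and 0.152).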
